A study of Mus musculus with 6 samples.

Results

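Npr3, Inhbb, Prg4 and Itga5 were described in quadriceps muscle of utrn+/-;mdx mice, which lack dystrophin and carry a single working copy of the gene for the related protein utrophin. The 4 genes are the rows with these symbols, 1 probe set each, in a table of 60 probe sets that the authors selected by comparing the same 6 arrays, whose full value table holds 45037 probe sets beside the controls. They comprise a peptide hormone signalling pair, Npr3 and Inhbb, and a matrix and cell surface pair, Prg4 and Itga5. Treated mice (3) drank lisinopril, an angiotensin-converting enzyme inhibitor, at 10 mg/kg per day and spironolactone, a mineralocorticoid receptor antagonist, at 37.5 mg/kg per day from 4 weeks of age. Untreated mice (3) had water without drugs. All mice were of the strain labelled C57BL/10 and were dissected at 20 weeks, and each group held 2 males, mice 1 and 2, and 1 female, mouse 3. Both groups are dystrophic, and no healthy or singly treated muscle was analysed here.

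Npr3 encodes the clearance receptor for natriuretic peptides, which binds these vasodilating and salt-excreting hormones and removes them by internalization without making cyclic GMP. Inhbb encodes the beta-B subunit that forms activin B as a dimer and inhibin B with the alpha subunit; activins signal through SMAD transcription factors and can restrain muscle growth. Prg4 encodes lubricin, a secreted mucin-like proteoglycan known from joint, tendon and fascial surfaces. Itga5 encodes the alpha-5 integrin subunit, which pairs with beta-1 to bind fibronectin on fibroblasts, vessels and muscle precursors.

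All 4 genes had lower means in treated than in untreated quadriceps. A difference of at least 2-fold follows from the authors' selection, which holds both directions, with 28 of its 60 probe sets lower in treated mice. The members were chosen with earlier results of these data known. Direction and size are therefore given as a description without a test. The means were 3.18-fold lower for Prg4, 2.38-fold lower for Npr3, 2.17-fold lower for Inhbb and 2.06-fold lower for Itga5. Among the 28 probe sets of the authors' table with lower treated means, they ranked 7, 13, 20 and 25 by the size of the fold. Itga5 lies just inside the selection, and a probe set just outside it, not paired with a gene name here, was 1.99-fold lower. Over all 45037 probe sets, 85 (0.189%) were lower by 2-fold or more, and 31 (0.0688%) also had an unadjusted limma p under 0.05. The limma fit called 0 probe sets (0%) after Benjamini-Hochberg adjustment and 3443 (7.64%) at an unadjusted p under 0.05, so that none of the 4 genes is shown to differ at the level of the whole array. In the authors' deposited table the false discovery rate was 0.601 for each of the 4.

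The arrays had median log2 values of 6.07 to 6.13 and correlated with each other at 0.974 to 0.995. For 4 poly-A spikes, RNAs added to follow labelling, the mean log2 signal at the 3' end minus that at the 5' end was 1.32, 1.52 and 1.53 on the arrays of treated mice 1, 2 and 3, against 1.44, 1.69 and 1.76 on those of untreated mice 1, 2 and 3. Untreated mice 2 and 3 thus stood above the treated arrays and untreated mouse 1 among them, which is also how the mice lay for Prg4 and Itga5 below. The same measure for the Gapdh transcript was 0.164, 0.241 and 0.187 in treated mice, against 0.217, 0.523 and 0.591 in untreated mice. With the spike measure as a term in the fit, the differences became 1.56-fold lower for Npr3, 1.51-fold for Prg4, 1.49-fold for Inhbb and 1.33-fold for Itga5. The spike measure itself ran from 1.32 to 1.53 in treated and 1.44 to 1.76 in untreated mice. The term can therefore also take up part of the treatment difference, and labelling and treatment cannot be told apart here. In whole muscle, fewer cells of a type and less RNA per cell cannot be told apart.

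Promoter windows of 3 of the 4 genes were read from RefSeq (GRCm38.p6), 250 bases before to 50 after the start, and are shown as a description. Both windows of the signalling pair hold the same 6 letters, a match seen in the search and not tested. No window was available for Prg4, so the matrix pair was searched in Itga5 only and the pairs cannot be compared. The windows, all on the minus strand and written 5′ to 3′ along the gene, are chr15:11907322-11907621 for Npr3, chr1:119422199-119422498 for Inhbb and chr15:103366742-103367041 for Itga5. The array's own genome build is not given in the sources used here. The start used for Npr3 lies 466 bases inside the outer end of the annotated gene. Capitals mark AGAACA, a hexamer bound by mineralocorticoid and glucocorticoid receptors, and CAGAC, the SMAD box, each searched on both strands.
Npr3: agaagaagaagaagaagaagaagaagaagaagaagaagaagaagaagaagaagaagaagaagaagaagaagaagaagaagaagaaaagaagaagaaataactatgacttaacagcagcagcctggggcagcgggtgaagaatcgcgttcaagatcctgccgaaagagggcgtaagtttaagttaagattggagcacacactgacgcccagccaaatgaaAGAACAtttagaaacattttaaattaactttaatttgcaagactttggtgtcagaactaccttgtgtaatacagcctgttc
Inhbb: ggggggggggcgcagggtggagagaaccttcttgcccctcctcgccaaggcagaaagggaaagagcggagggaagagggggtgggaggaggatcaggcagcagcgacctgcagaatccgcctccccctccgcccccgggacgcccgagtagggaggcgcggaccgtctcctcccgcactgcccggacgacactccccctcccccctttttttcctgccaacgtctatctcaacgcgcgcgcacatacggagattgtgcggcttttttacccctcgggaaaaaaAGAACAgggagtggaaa
Itga5: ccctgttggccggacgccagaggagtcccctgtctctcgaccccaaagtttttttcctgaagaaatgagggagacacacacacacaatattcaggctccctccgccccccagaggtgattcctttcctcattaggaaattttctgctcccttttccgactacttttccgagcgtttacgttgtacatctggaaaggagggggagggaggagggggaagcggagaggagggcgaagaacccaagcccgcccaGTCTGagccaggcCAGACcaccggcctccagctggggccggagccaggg
AGAACA stood once in Npr3, with its first base at -31 from the start, and once in Inhbb, at 34, both on the strand of the gene. It was not in the Itga5 window, and it is in 19.0% of all 32841 windows of 300 bases. CAGAC occurred 2 times in Itga5, at 2 on the opposite strand and at 15 on the strand of the gene, and not in the other 2 windows. It is in 49.6% of all windows. TGANTCA, the AP-1 site, was in none of the 3 windows and is in 7.81% of all. The marked motifs do not overlap each other. A match describes letters and does not show binding.

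Npr3 had log2 values of 5.54, 6.45 and 6.34 in treated mice 1, 2 and 3, against 6.66, 7.96 and 7.47 in untreated mice 1, 2 and 3. Every treated mouse lay below every untreated mouse, and mouse 1 was the lowest of its group in both. The means were 6.11 ± 0.50 in treated and 7.36 ± 0.66 in untreated mice (SD, n = 3 each), a log2 difference of -1.25 with a moderated SE of 0.36. Npr3 is the gene of the 4 whose difference moved least when a single mouse was left out, from 1.94-fold lower without untreated mouse 2 to 3.04-fold lower without untreated mouse 1.

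Inhbb had log2 values of 6.37, 6.22 and 6.16 in treated mice 1, 2 and 3, against 6.52, 7.09 and 8.50 in untreated mice 1, 2 and 3. The treated mice were nearly level, while the untreated female stood well above both untreated males, and the groups did not overlap. The means were 6.25 ± 0.11 in treated and 7.37 ± 1.02 in untreated mice (SD, n = 3 each), a log2 difference of -1.12 with a moderated SE of 0.44. Without untreated mouse 3 the mean was 1.47-fold lower in treated mice, and within the 2 males of each group it was 1.42-fold lower.

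Prg4 had log2 values of 9.81, 10.30 and 10.61 in treated mice 1, 2 and 3, against 10.41, 12.43 and 12.89 in untreated mice 1, 2 and 3. Untreated mouse 1 lay below the highest treated mouse, so that the groups overlapped, while the other two untreated mice were far above all treated mice. The means were 10.24 ± 0.41 in treated and 11.91 ± 1.32 in untreated mice (SD, n = 3 each), a log2 difference of -1.67 with a moderated SE of 0.59. Leaving out untreated mouse 1 gave a 5.34-fold lower treated mean, and leaving out untreated mouse 3 gave 2.27-fold.

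Itga5 had log2 values of 5.68, 6.15 and 5.82 in treated mice 1, 2 and 3, against 6.09, 6.91 and 7.77 in untreated mice 1, 2 and 3. The groups overlapped only because untreated mouse 1 lay just below treated mouse 2. The means were 5.88 ± 0.24 in treated and 6.93 ± 0.84 in untreated mice (SD, n = 3 each), a log2 difference of -1.04 with a moderated SE of 0.38. It was 1.53-fold lower without untreated mouse 3 and 2.75-fold lower without untreated mouse 1.

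**Figure D1:**
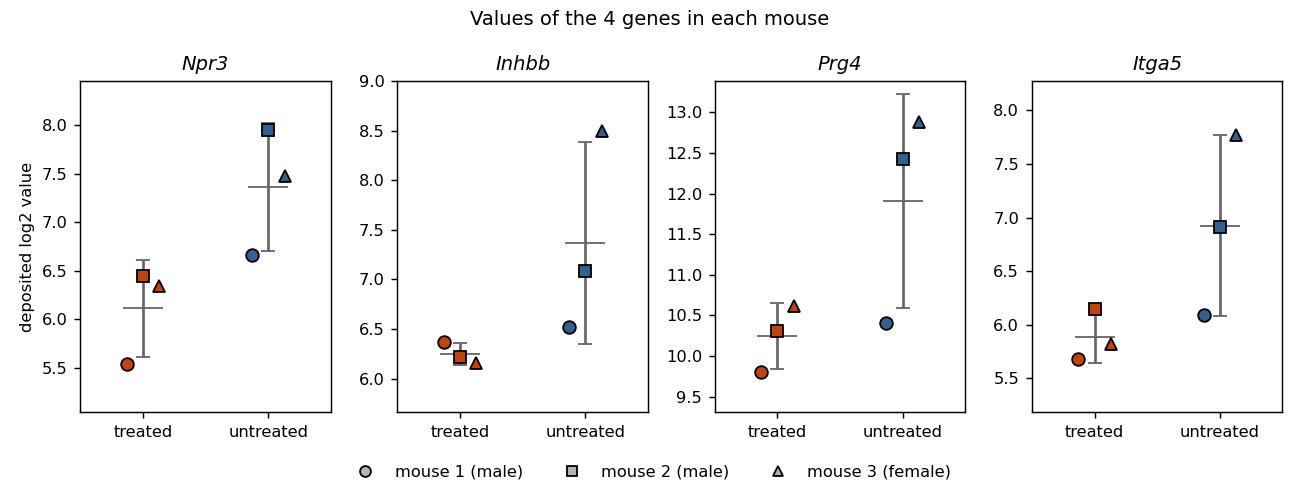
Deposited log2 values (vertical axes, a separate scale for each gene) of Npr3, Inhbb, Prg4 and Itga5 in 3 treated and 3 untreated mice, with marker shapes for mouse number and sex and grey bars for the group mean ± SD. Untreated mouse 1 is the lowest untreated mouse for all 4 genes, at 6.66 for Npr3, 6.52 for Inhbb, 10.41 for Prg4 and 6.09 for Itga5.

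The signalling pair thus had groups that did not overlap and the matrix pair had groups that did. Over all probe sets, 2351 (5.22%) had every treated mouse below every untreated mouse, and in the authors' 28 probe sets with lower treated means it was 13 (46.4%). The members come from that selection, so their count of 2 of 4 is not read against either share. The contrast between the pairs rests on untreated mouse 1. The lowest untreated minus the highest treated log2 value was 0.21 for Npr3 and 0.15 for Inhbb, against -0.20 for Prg4 and -0.057 for Itga5. These distances are all smaller than the pooled SD between mice, which was 0.58 for Npr3, 0.73 for Inhbb, 0.97 for Prg4 and 0.62 for Itga5.

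**Figure D2:**
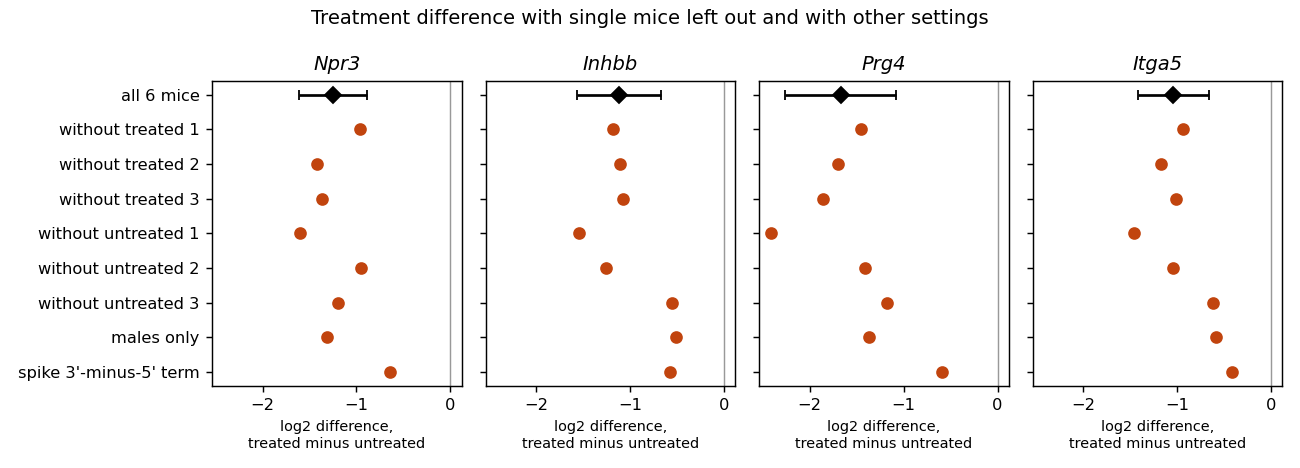
Log2 difference, treated minus untreated (horizontal axes), of the 4 genes with all 6 mice (diamond, bar is the moderated SE), with each mouse left out, in males only and with the spike 3'-minus-5' signal as a term. Every value is below 0; the one nearest to 0 is that of Itga5 with the spike term, 1.33-fold lower, and the one farthest from 0 is Prg4 without untreated mouse 1, 5.34-fold lower.

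The 4 genes varied widely between mice of a group. The pooled SD of Npr3 exceeded that of 97.8% of probe sets, that of Inhbb 99.0%, that of Prg4 99.7% and that of Itga5 98.1%. Selection for a 2-fold difference between small groups favours variable probe sets. SD ranks were not taken within the authors' table, so they are not read as particular to these genes. For all 4 the untreated mice were the more variable group, with an untreated SD of 9.39 times the treated SD for Inhbb, 3.54 times for Itga5, 3.24 times for Prg4 and 1.32 times for Npr3. An untreated SD above the treated SD was found for 27276 of all probe sets (60.6%) and for all 28 of the authors' probe sets with lower treated means (100%), so the direction is not particular to these genes. The genes differed in how they came to it. Inhbb had a treated SD above that of 43.7% of probe sets and an untreated SD above that of 99.4%. Its treated mean of 6.25 lay near the array medians of 6.07 to 6.13. Npr3 (6.11) and Itga5 (5.88) also had treated means near or below them, while that of Prg4 was 10.24. Low values are compressed, and the part of compression in the treated SDs was not tested. Npr3 ranked similarly in both groups, above 98.2% of probe sets by its treated SD and above 97.3% by its untreated SD. Prg4 ranked above 96.9% and 99.8% by its treated and untreated SD, and Itga5 above 86.7% and 98.7%.

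**Figure D3:**
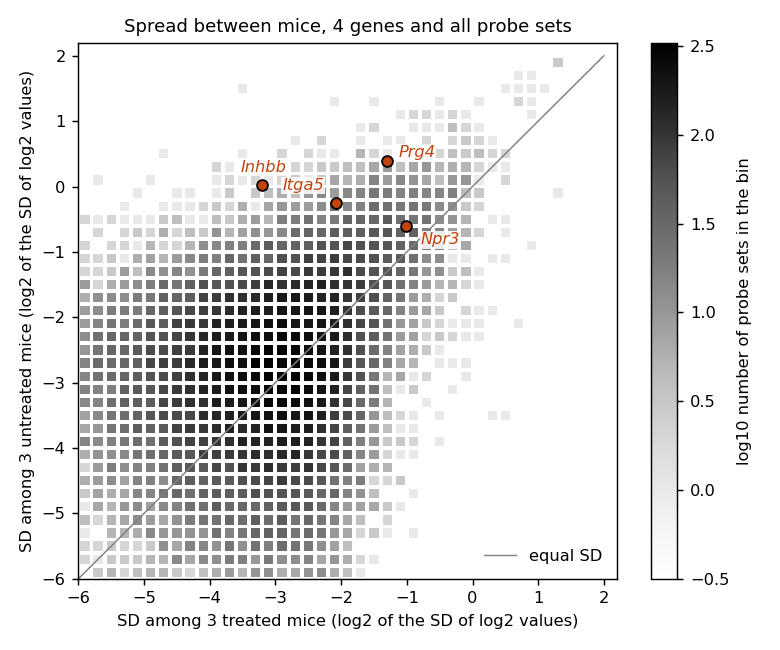
SD among 3 untreated mice against SD among 3 treated mice, each as log2 of the SD of log2 values, for the 4 genes (red) and for all probe sets counted in bins (grey scale, log10 of the number of probe sets); probe sets with an SD below the axes are not drawn. All 4 genes lie above the line of equal SD, Inhbb farthest from it, at an untreated SD 9.39 times its treated SD, and Npr3 nearest, at 1.32 times.

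Relations between the genes were examined on deviations from the group means, because the choice of members fixes how raw values line up across groups. In treated mice 1, 2 and 3 the deviations were -0.57, 0.34 and 0.23 for Npr3, while in untreated mice 1, 2 and 3 they were -0.70, 0.59 and 0.11. For Inhbb they were 0.12, -0.030 and -0.091 in treated mice, and -0.85, -0.28 and 1.13 in untreated mice. Treated mouse 1, the lowest of its group for Npr3, was the highest for Inhbb, and among untreated mice Npr3 was highest in mouse 2 and Inhbb in mouse 3. For Prg4 the deviations were -0.43, 0.062 and 0.37 in treated mice, and -1.50, 0.52 and 0.98 in untreated mice. For Itga5 they were -0.20, 0.26 and -0.062 in treated mice, and -0.83, -0.015 and 0.85 in untreated mice. Among untreated mice Inhbb, Prg4 and Itga5 shared 1 order of mice and Npr3 had another, while among treated mice Npr3 and Itga5 shared an order that Inhbb and Prg4 did not have.

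Prg4 and Itga5 deviated together across the 6 mice with Pearson r = 0.893 (exact permutation p = 0.139, adjusted 0.417) and Spearman rho = 0.829 (exact permutation p = 0.139, 0.667 after adjustment). Leaving out untreated mouse 3 gave r = 0.88 and leaving out untreated mouse 1 gave r = 0.604. With both left out, as the mice farthest from the median of Prg4, r over the other 4 was 0.305, on deviations from the means of all mice; choosing mice by their extremes on Prg4 lowers r by itself. Npr3 and Inhbb had r = 0.272 (exact permutation p = 0.806, adjusted 0.806) and rho = -0.029 (exact permutation p = 1, also after adjustment). Across the pairs, r was 0.918 for Inhbb with Itga5 (rho = 0.60), 0.805 for Npr3 with Prg4 (rho = 0.60), 0.759 for Inhbb with Prg4 (rho = 0.429) and 0.599 for Npr3 with Itga5 (rho = 0.60). Their exact permutation p values were 0.25, 0.139, 0.50 and 0.389, and the adjusted values 0.50, 0.417, 0.60 and 0.583; for rho they were 0.444, 0.444, 0.556 and 0.361, all 0.667 after adjustment. With the mice farthest from the median of the first-named gene left out likewise, r was negative for every other pair. Without untreated mice 1 and 3 it was -0.244 for Inhbb with Itga5 and -0.940 for Inhbb with Prg4. Without treated mouse 1 and untreated mouse 1 it was -0.390 for Npr3 with Prg4, -0.659 for Npr3 with Itga5 and -0.772 for Npr3 with Inhbb. The choice of mice lowers these values as well. The 6 pairs were tested two-sided by reordering mice within groups, which allows 36 pairings and a smallest p of 0.0278. A single pair at that floor would have an adjusted p of 0.167, and at least 4 of the 6 would have to reach it for any to pass. No pair passed, and the signalling pair and the matrix pair are not shown to differ in how their genes relate, since that difference was not tested. Each group's 3 mice are too few for a correlation of their own. The deviations were not scaled by group, so r weighs the more variable untreated mice more. For Inhbb, with an SD of 0.11 in treated and 1.02 in untreated mice, r rests mostly on the untreated mice. In treated mice the order of Inhbb was the reverse of that of Prg4.

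**Figure D4:**
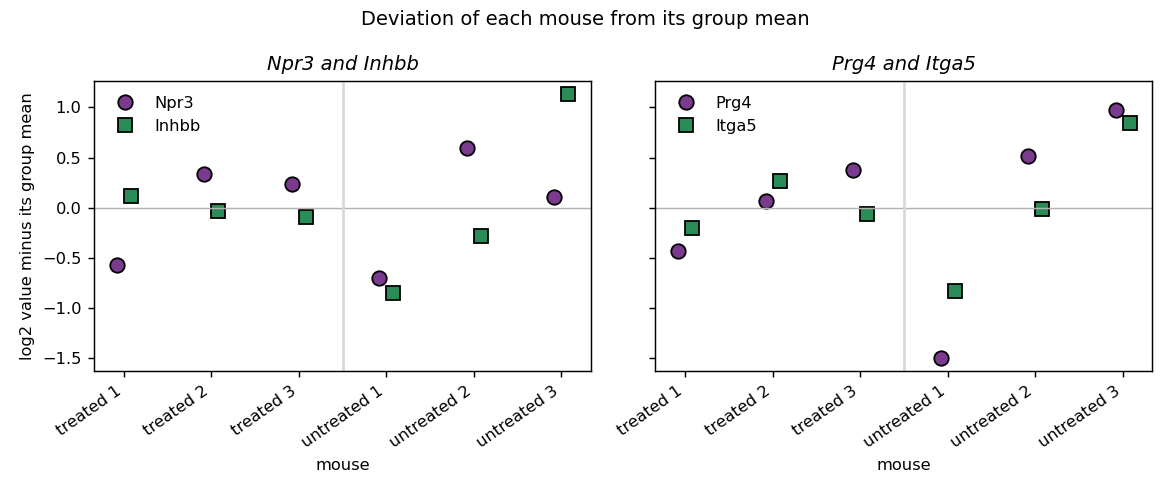
Log2 value minus group mean (vertical axis) of Npr3 and Inhbb (left) and of Prg4 and Itga5 (right) in each of the 6 mice (horizontal axis). Untreated mouse 1 is below its group mean for all 4 genes, by the most for Prg4, with a deviation of -1.50; treated mouse 1 is at -0.57 for Npr3 and 0.12 for Inhbb.

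Of the other 49 genes named singly in the authors' table, those whose deviations over the 6 mice were most like each member are given as a description, without a test, because they are the highest of 49. Itga5 was most like Hivep3, a zinc finger transcription factor (r = 0.993, rho = 1), and Ankrd1, a stretch-responsive muscle ankyrin repeat protein (r = 0.98, rho = 0.943). Prg4 was most like the slow-fibre genes Tpm3 (r = 0.982), Myl3 (r = 0.959) and Myl2 (r = 0.954), with rho = 0.943 for each. Inhbb was most like Cxcl1, a neutrophil-attracting chemokine (r = 0.976, rho = 0.943), then Mid1ip1, a lipogenic regulator (r = 0.934, rho = 0.771), and Itga5 (r = 0.918, rho = 0.60). Npr3 was most like Myo5a, a vesicle-carrying myosin (r = 0.934, rho = 0.714), then 6030422H21Rik (r = 0.895, rho = 0.943) and Prg4 (r = 0.805, rho = 0.60). The first neighbours of the 4 genes were therefore 4 different genes, and only Npr3 and Inhbb had another member among their nearest 3. All these values share the same 6 arrays, and those of Inhbb rest mostly on the untreated mice.

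Female and male mice were compared with treatment as a term, a contrast that did not choose the genes. The means of females were higher for all 4 genes in this fit, none passed, and the direction or size changed with 1 mouse left out or with the spike term. For Prg4 the female had 10.61 against a male mean of 10.06 in treated mice, and 12.89 against 11.42 in untreated mice, a female-minus-male log2 difference of 1.01 (SE 0.52, limma adjusted p = 0.849). Inhbb differed by 0.78 (SE 0.39, limma adjusted p = 0.849), Itga5 by 0.59 (SE 0.35, limma adjusted p = 0.849) and Npr3 by 0.26 (SE 0.38, limma adjusted p = 0.919). The same fit called 4 probe sets of 45037 (0.00888%), and 2163 (4.80%) had an unadjusted p under 0.05. Among treated mice the female was below the male mean for Inhbb, at 6.16 against 6.30, and for Itga5, at 5.82 against 5.92. Without untreated mouse 3 the female-minus-male difference was -0.14 for Inhbb and -0.092 for Itga5, and without untreated mouse 1 it was -0.0078 for Npr3. With the spike measure as a further term it was 0.11 for Prg4, 0.48 for Inhbb, 0.068 for Itga5 and -0.43 for Npr3.

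The treatment difference, treated minus untreated, was -1.13 between the 2 females and -1.31 between the male means for Npr3. It was -2.34 in females and -0.51 in males for Inhbb, -2.27 and -1.37 for Prg4, and -1.95 and -0.59 for Itga5. The sexes lay closest for Npr3 and farthest apart for Inhbb. The interaction of treatment with sex had a limma adjusted p of 1.00 for Npr3 and Prg4, 0.575 for Inhbb and 0.951 for Itga5, and the fit called 0 of 45037 probe sets (0%), while 2325 (5.16%) had an unadjusted p below 0.05. This fit rests on 1 female a group, assumed to vary like the males.

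Other genes of the 4 pathways could hardly be followed, because gene names were paired only with the 60 selected probe sets. Of 13 listed genes of the natriuretic peptide system, 20 of activin and TGF-beta family signalling and 13 of lubricin and tendon surface matrix, the member itself was the only one named. Of 17 listed genes of the fibronectin receptor and its matrix, 2 were named, Itga5 and Itgb1bp3, now called Nmrk2, a nicotinamide riboside kinase of muscle. None of the 12 listed genes of the renin-angiotensin-aldosterone system was named. The ligands, the partner integrin beta-1 and the activin receptors are therefore not described here.

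The same limit holds for cell type markers. The tissue label could be set against 2 of 13 skeletal fibre markers, Jph2 and Mybph, whose mean log2 level was 10.6 to 11.3 in treated and 9.40 to 10.4 in untreated mice. Of 8 slow-fibre markers 5 were named, all with lower treated means, and their mean was 7.34, 7.65 and 8.92 in treated mice 1, 2 and 3, against 8.28, 10.5 and 11.6 in untreated mice 1, 2 and 3. These mice lay in the same order for the slow-fibre mean as for Prg4 within each group. Tpm3, Myl3 and Myl2 are among these 5 markers and were picked above as most like Prg4. The shared order follows in part from that pick and is not separate evidence. The spike measure also had this order, and the cause was not tested. Of 16 adipocyte markers 5 were named, all with higher treated means, at 8.41 to 9.98 in treated and 7.88 to 8.28 in untreated mice. Of 4 neutrophil markers Lcn2 was named, at log2 levels of 6.74 to 7.01 in treated and 7.87 to 10.7 in untreated mice, and of 4 Schwann cell markers Mbp, at 7.28 to 7.77 in treated and 8.03 to 8.99 in untreated mice. Both were lower in every treated mouse than in every untreated mouse. That held for 5.22% of all probe sets and 46.4% of the authors' 28 with lower treated means. All markers named here come from the authors' selection on this same contrast. Their group differences follow in part from it and are not separate evidence on cell types. Of 8 markers of tendon or synovial fibroblasts Prg4 itself was the only one named, and none was named of the fibroblast, endothelial, pericyte, macrophage, satellite cell or mast cell lists. The part of any of these cells in the differences of the 4 genes was not tested.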

How the data were processed

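Quadriceps RNA of 6 mice was measured on microarrays, 1 array per mouse, and groups were taken from the labels. The deposited values are log2 signals of 45101 probe sets. The submitters' processing notes name RMA, Affymetrix Expression Console and Transcriptome Analysis Console, without roles or versions. The authors also deposited a table of 60 probe sets with gene names, the same log2 values, p-values and false discovery rates, class geometric mean intensities, and the fold change as a ratio, per the file headers. Its values for the 4 genes differed from the full table by at most 8.55e-05.

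After leaving out 64 control probe sets, 45037 were fitted in R 4.3.3 by limma 3.58.1 with moderated variances, treated minus untreated without covariates, and female minus male with treatment as a term, in two-sided tests adjusted by Benjamini-Hochberg across the whole array, called at 0.05. The fits were tested on simulated data. Depth does not apply to arrays; the number of arrays limits the precision. Normalization between arrays hides a shift shared by most genes, and low values are compressed. A probe set's level was set against the array medians only, and not against that of another probe set. No scanner files or detection calls were used here, so background correction was not varied.

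The members and gene lists were chosen with earlier results of these data known. The named genes are the 4 members, for each the 3 genes of the authors' table most like it by r of deviations from group means (brightest probe set of a gene), and list members that the files name; 1 gene is not reported here. Alternatives were other covariates, array weights, centring, quantile normalization, a filter on dim probe sets, males only, the authors' table and leaving out each mouse. Replicate numbers do not pair the mice.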

Additional observations from a re-analysis of the deposited data

How the results depend on the processing

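Treated means of the 4 genes were below untreated means under all alternatives run, and no sex difference passed its threshold under any. No relation passed either, but with 1 mouse left out only 12 pairings remain, the smallest p is 0.0833 and none could. With the spike 3'-minus-5' signal as a term, the log2 treatment difference was -0.64 for Npr3, -0.59 for Prg4, -0.58 for Inhbb and -0.41 for Itga5. The sex difference with this term was -0.43 for Npr3, 0.11 for Prg4, 0.48 for Inhbb and 0.068 for Itga5. The cause was not tested for these or for the counts over all probe sets. These counts were 25 at 2-fold lower and 1507 at an unadjusted limma p under 0.05. That last count was 7986 with array weights, and 1520 among probe sets brighter than the median, where fewer were tested. Leaving out 1 mouse at a time gave log2 treatment differences of -1.60 to -0.96 for Npr3, -1.55 to -0.55 for Inhbb, -2.42 to -1.18 for Prg4 and -1.46 to -0.62 for Itga5. It gave sex differences of -0.0078 to 0.55 for Npr3, -0.14 to 1.70 for Inhbb, 0.51 to 1.47 for Prg4 and -0.092 to 1.27 for Itga5. The relation r ranged from -0.558 to 0.551 for Npr3 and Inhbb, 0.604 to 0.95 for Prg4 and Itga5, -0.034 to 0.931 for Npr3 and Itga5, 0.476 to 0.936 for Npr3 and Prg4, 0.352 to 0.91 for Inhbb and Prg4 and 0.717 to 0.963 for Inhbb and Itga5. The counts over all probe sets ranged from 1434 to 7456 at an unadjusted p under 0.05, the highest without untreated mouse 1, from 60 to 398 at 2-fold lower, and from 3410 to 6483 with every treated mouse below every untreated mouse, which fewer mice make more frequent. The limma count of adjusted calls was 0 each time. The replicate block left the differences at -1.25 for Npr3, -1.12 for Inhbb, -1.67 for Prg4 and -1.04 for Itga5, with 0 adjusted calls by limma and 5124 at an unadjusted p under 0.05. Deviations of same-numbered mice correlated over all probe sets at 0.517, -0.082 and 0.183 for numbers 1, 2 and 3, and not every mouse correlated best with its own number. With 3 arrays a group and no detection calls, small differences and dim genes cannot be resolved.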
